A study of Mus musculus with 9 samples.

Results

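The comparison described here sets laser-captured cells of the mouse paraventricular hypothalamus that carried 2 labels against cells that carried mCherry alone. It took in 6 of the 9 libraries of the study, overlap 1 to 3 and mCherry 1 to 3, and all 54838 genes of the count table. Of these genes, 16410 had enough reads to be tested. The overlap libraries held cells positive for both mCherry and cfos, and the mCherry libraries held cells positive for mCherry only. The remaining 3 libraries, of cells positive for cfos only, entered the fit to share its estimate of spread and are not described. The study's design names CRD-labelled, VFF-labelled and doubly labelled cells, in work on visceral and somatic pain. Whether CRD corresponds to mCherry or to cfos, and VFF to the other, is not stated. They call every library a biological replicate of brain neurons, and give no strain, age, sex, animal, number of captured cells or batch, nor what drives mCherry. Libraries were made with Smart-3SEQ, a method that reads the 3′ ends of polyadenylated RNA from small captured samples.

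The paraventricular nucleus of the hypothalamus (PVH) is a small group of neurons beside the third ventricle. Its magnocellular neurons make vasopressin and oxytocin for the posterior pituitary, and its parvocellular neurons make releasing hormones such as corticotropin-releasing hormone, which starts the stress hormone axis. Most PVH neurons use glutamate as their fast transmitter, are marked by the transcription factors Sim1 and Otp, and carry peptides in dense-core granules. Strong sensory input switches on immediate early genes such as Fos within such neurons, which is why Fos is used as a label of recent activity.

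Total counts were 504785 to 597898 in the overlap libraries and 877257 to 978877 in the mCherry libraries. CPM below is a gene's count scaled to the size of its library. The log2 CPM of the 16410 tested genes gave Pearson's r of 0.516 to 0.547 between overlap libraries and 0.380 to 0.456 between an overlap and an mCherry library. Genes are not independent points, so these values carry no p. mCherry 1 and mCherry 3 correlated at 0.365, below every pair across the groups. mCherry 2 correlated at 0.678 with mCherry 1 and at 0.825 with mCherry 3, and its count was above the sum of theirs in 0 of 54838 genes. In the 32512 genes with no count in mCherry 1 and mCherry 3, mCherry 2 had 0 counts as well. mCherry 2 was thus closer to mCherry 1 and to mCherry 3 than these were to each other. It may not be an independent replicate, which was not tested. Fold changes and their standard errors below come from the fit that counts it as a replicate, unless stated. The counts of genes, the list medians and the main genes are given with it and without it. Presence and absence also varied within groups. Of the genes with 20 or more counts in 1 of a pair of libraries, 8.46% to 11.3% were at 0 in the other between overlap libraries, 15.8% between mCherry 1 and mCherry 3, and 8.79% to 17.0% across the groups. A gene at 0 in one library and well covered in the next was thus common inside a group. Biological replicates is the labels' term, with no statement on separate animals, so a p-value covers only the spread seen among these libraries.

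**Figure D1:**
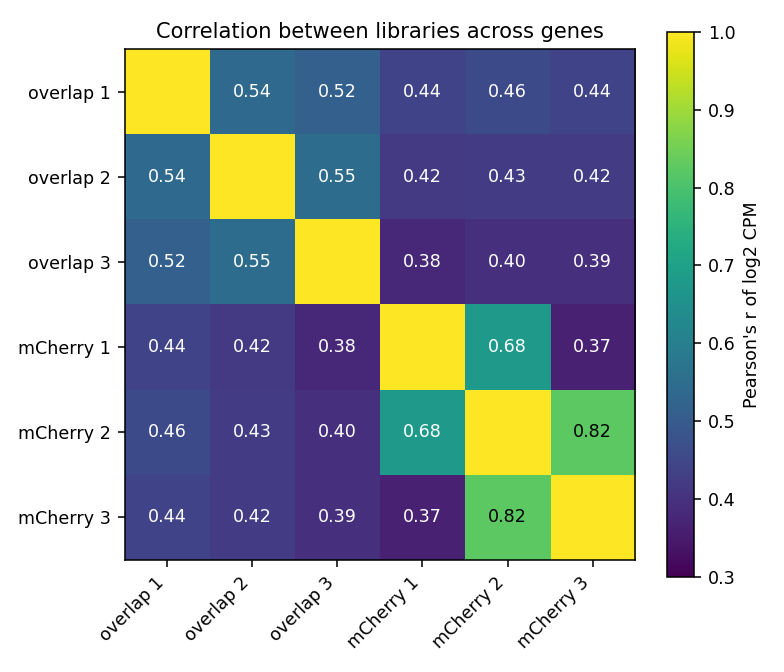
Pearson's r of log2 CPM between the 6 libraries, across the 16410 genes tested, with overlap 1 to 3 and mCherry 1 to 3 on both axes and colour for r. The 3 overlap libraries form a block at 0.516 to 0.547, while mCherry 1 and mCherry 3 meet at 0.365 and mCherry 2 is close to both.

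The captured cells were checked against markers of their label. The second label of the overlap cells, cfos, carries the name of the transcription factor gene Fos. Fos had 72.4, 209 and 282 CPM in overlap 1 to 3 and 30.9, 21.3 and 11.3 CPM in mCherry 1 to 3. Every overlap library stood above every mCherry library, so Fos RNA ran the way the labels do, and Fos was also detected in each mCherry library. Sim1 had 81.5, 36.3 and 10.5 CPM in the overlap and 17.1, 20.1 and 44.0 CPM in the mCherry libraries, and Otp had counts of 5, 4 and 1 and 0, 1 and 1. Both PVH factors were thus seen in each group, with groups that overlap and with Otp too low to be tested. RNA of other cells was present in each group. The summed level of 18 oligodendrocyte markers was 566 to 1946 CPM in overlap and 1361 to 2557 CPM in mCherry, so that these ranges overlap. Gfap, the astrocyte filament, had only 3, 2 and 1 counts and 1, 1 and 0 counts, and the haemoglobin gene Hba-a1 was at 0 in all 6 libraries.

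No gene passed the adjusted threshold. edgeR's quasi-likelihood test, two-sided with Benjamini-Hochberg adjustment at 0.05, called 0 of 16410 genes (0%), and the smallest adjusted p was 0.257. At an unadjusted p under 0.05, 1653 genes (10.1%) were higher and 804 (4.90%) were lower in overlap. Without mCherry 2 the test again called 0 of 15274 genes (0%), with 686 (4.49%) higher and 297 (1.94%) lower at the unadjusted threshold. Other settings did call genes. With no filter on low counts, the edgeR test called 318 of 30105 genes higher (1.06%) and 166 lower (0.551%). DESeq2 called 634 higher (3.86%) and 245 lower (1.49%), and without mCherry 2 it called 99 (0.648%) and 24 (0.157%). limma-voom called 1164 higher (7.09%) and 168 lower (1.02%), and none in either direction (0%) once mCherry 2 was left out. The biological coefficient of variation was 0.958 in the edgeR fit and 1.04 without mCherry 2, a spread about as large as the mean of a typical gene.

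Groups are called separated where every overlap library lay above, or every one lay below, every mCherry library in CPM. This held for 2222 genes (13.5%) on the higher side and for 1458 genes (8.88%) on the lower side. Without mCherry 2 these were 2248 (14.7%) and 1358 (8.89%) of 15274. The median log2 fold change, overlap over mCherry, varied with abundance. It was 0.43 in the 5082 genes with a mean under 20 CPM and 0.09 in the 8579 genes from 20 to 100 CPM. In the 2591 genes from 100 to 300 CPM it was -0.15, and 10.0% were separated on the higher side against 12.8% on the lower. In the 158 genes above 300 CPM it was -0.09, with 13.3% and 21.5%. Without mCherry 2 these 4 medians were 0.58, -0.05, -0.33 and -0.24, so that the sign turned from 20 to 100 CPM. Among the 2749 genes with a mean of 100 CPM or more that both fits tested, 35 (1.27%) were higher and 116 (4.22%) were lower at an unadjusted p under 0.05 in both fits. Over all 15274 genes that both fits tested, those figures were 686 (4.49%) and 285 (1.87%). The median over all tested genes was 0.09 and became -0.03 under the relative log expression scaling and -0.02 without mCherry 2, so list medians below are read against that shift. The overlap libraries had fewer reads, and the part of depth in this was not tested. Without mCherry 2, the number of separated members of a gene list differed by at most 2 in each of 33 lists. A gene whose groups are separated stays separated when a library is left out, so this is no independent check.

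**Figure D2:**
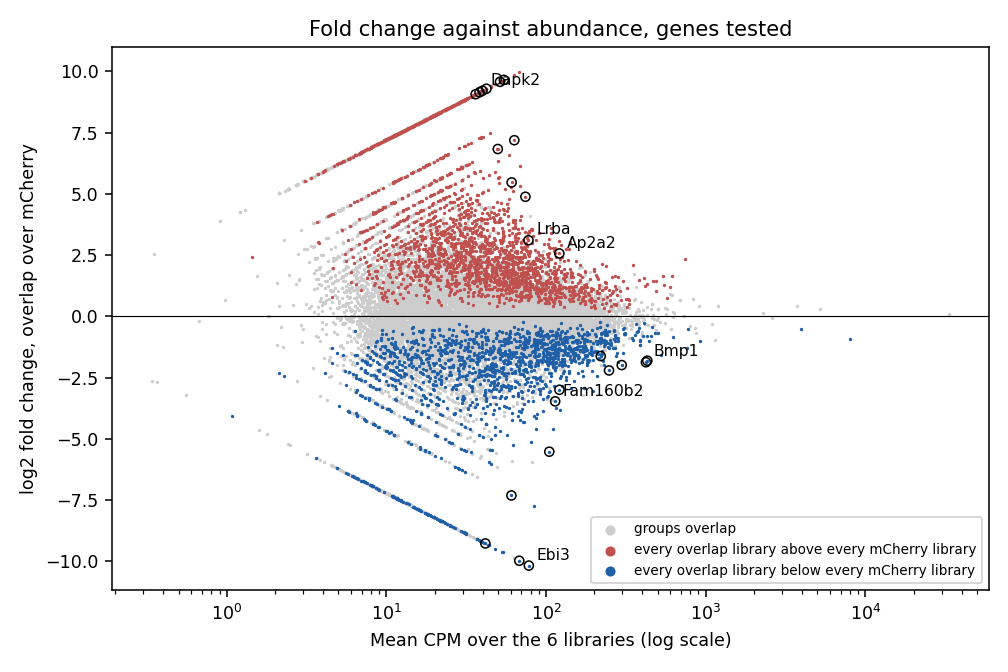
Log2 fold change, overlap over mCherry, against the mean CPM of the 6 libraries on a log scale, 1 point for each of the 16410 genes tested. Red and blue points are the 2222 and 1458 genes whose groups do not overlap, circles are the 24 leading genes, and straight lines of points at the edges are genes with no count in 1 group.

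The leading genes on the overlap side were a mixed set that included membrane trafficking and cytoskeletal proteins. The rule for them ranked genes by the larger of their p-values with and without mCherry 2. It took those with separated groups and at least 20 counts in each library of the higher group, mCherry 2 not counted. Lrba encodes a large BEACH-domain protein of vesicle trafficking and lies at chr3:86224680-86782692 (mm10). It had 132, 141 and 143 CPM in overlap 1 to 3 and 13.9, 18.9 and 15.3 CPM in mCherry 1 to 3. The 3 overlap libraries were close together and far above all mCherry libraries, with a log2 fold change of 3.11 ± 0.61 (SE, n = 3 and 3; edgeR adjusted p = 0.257). Ap2a2, at chr7:141562173-141633011, encodes an alpha subunit of the AP-2 adaptor that gathers cargo into clathrin-coated pits. Its CPM was 150.3, 187 and 284 in overlap and 30.9, 37.8 and 35.8 in mCherry, again with separated groups, and its log2 fold change was 2.57 ± 0.50 (edgeR adjusted p = 0.257). Lrba and Ap2a2 each share exon sequence with a gene on the opposite strand, Mab21l2 and Gm16982, and the sources used here do not say whether reads were counted by strand. Dpysl4, a collapsin response mediator of growing axons, had 54.3, 227 and 149.6 CPM against 4.27, 5.90 and 4.09 CPM, a log2 fold change of 4.88 ± 0.87. The mCherry libraries had 4 or 5 counts each, and the overlap libraries spread widely. Ptpn21, a tyrosine phosphatase tied to the cytoskeleton, had 59.7, 234 and 63.2 CPM and 2.13, 3.54 and 2.05 CPM, so overlap 2 carried most of its difference. Rmdn1, a regulator of microtubule dynamics, had counts of 84, 67 and 49 in overlap and 0, 1 and 1 in mCherry, and the scavenger receptor gene Colec12 had 57, 45 and 53 and 1, 1 and 0.

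The other leading genes on this side had no count at all in the mCherry libraries. Dapk2, a calcium- and calmodulin-dependent death-associated kinase, had counts of 57, 31 and 38 in overlap 1 to 3. Set against a floor of 3 counts over mCherry 1 and mCherry 3 together, its level was at least 51.0-fold higher in overlap. Ect2, an exchange factor for small GTPases used in cell division, had counts of 22, 28 and 60, at least 44.5-fold higher. Cyp1b1, a cytochrome P450 of steroid and xenobiotic metabolism, had counts of 30, 21 and 65, at least 46.9-fold higher. These genes were well covered in each overlap library and unseen in all mCherry libraries. Dsg4, Ly6g6c and Esp16, a desmosomal cadherin, a small membrane-anchored protein and a secreted peptide of exocrine glands, had counts from 37 to 85 in overlap. Over the table, 21 genes had 20 or more counts in each overlap library and none in mCherry 1 or mCherry 3, of which 11 were protein-coding. In the opposite direction, 22 genes were absent from overlap with 20 or more counts in mCherry 1 and mCherry 3, of which 4 were protein-coding.

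The leading genes on the mCherry side were better covered and held several neuronal surface and release proteins. Ntm encodes neurotrimin, an IgLON adhesion protein of neurites, and lies at chr9:28994750-29963141. It had 118, 111 and 131 CPM in overlap and 416, 508 and 501 CPM in mCherry, with a log2 fold change of -1.99 ± 0.33 (edgeR adjusted p = 0.257). All libraries of each group were close together, and the groups lay far apart. Epha5, at chr5:84054761-84417382, encodes an ephrin receptor of axon guidance and had 293, 203 and 75.8 CPM and 572, 707 and 729 CPM. Syt1, at chr10:108497650-109010982, encodes the calcium sensor of fast transmitter release and had 136, 65.3 and 122 CPM and 387, 331 and 277 CPM. Both genes were lower in each overlap library, with log2 fold changes of -1.81 ± 0.45 and -1.62 ± 0.42. Bmp1, at chr14:70474558-70520234, encodes a protease that trims procollagen, and Fam160b2 lies on the same chromosome at chr14:70583296-70599835. Bmp1 had 179, 205 and 158 CPM and 741, 648 and 597 CPM, a log2 fold change of -1.87 ± 0.32. Fam160b2 had 21.7, 21.8 and 12.6 CPM and 393, 109.8 and 125 CPM, so that mCherry 1 stood well above the other mCherry libraries.

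The remaining leading genes had varied roles. Tspyl4, of a nucleosome assembly family, had 92.3, 125 and 46.4 CPM in overlap and 485, 445 and 292 CPM in mCherry. Pck2, the mitochondrial form of phosphoenolpyruvate carboxykinase, had 54.3, 7.26 and 19.0 CPM and 356, 157 and 133 CPM. Zbtb2, a zinc finger repressor, had a single count in overlap, in overlap 2, and counts of 143, 114 and 73 in mCherry. All overlap libraries lay under all mCherry libraries for these 3 genes. Ebi3, a subunit of the cytokines interleukin 27 and 35, was at 0 in overlap and had counts of 157, 157 and 112 in mCherry, at least 73.9-fold lower in overlap. Nup107, a core nucleoporin that dividing and resting cells share, was at 0 in overlap with counts of 107, 120 and 148 in mCherry, at least 70.0-fold lower. A gene that cells commonly use was thus unseen in 3 libraries. Gsdmcl2 and Prkcz2, which the annotation lists as pseudogenes, differed between mCherry 1 and mCherry 3 themselves, with mCherry counts of 200, 10 and 24 and of 28, 182 and 362. Without mCherry 2, the log2 fold changes were 3.05 for Lrba, 2.44 for Ap2a2, -2.13 for Ntm, -1.97 for Epha5 and -1.82 for Syt1, each with an edgeR adjusted p of 0.760. The directions were those of the 6 libraries, which follows from the rule, since it took only genes with separated groups.

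**Figure D3:**
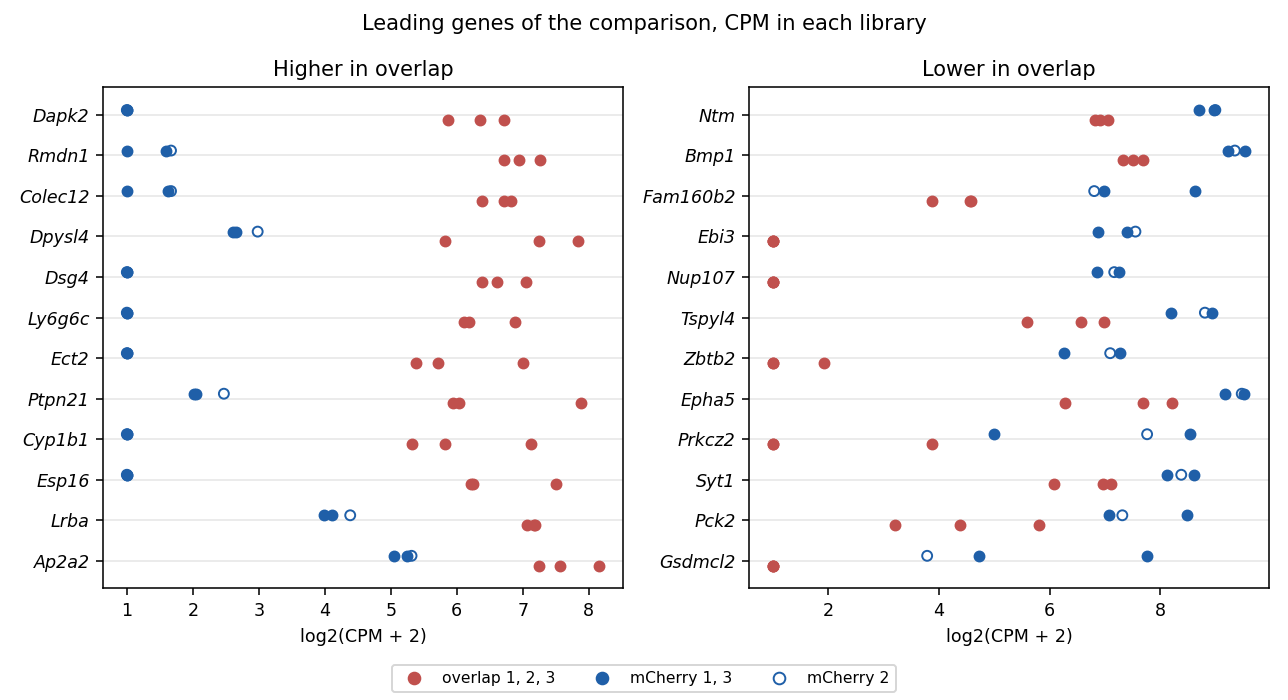
The 12 leading genes in each direction, with log2(CPM + 2) on the horizontal axis and 1 point for each library. Overlap libraries are red, mCherry 1 and mCherry 3 are filled blue, and mCherry 2 is open blue, and the groups separate in every row because the rule required it.

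Immediate early genes are transcribed within minutes of strong input and encode mostly transcription factors. Of a list of 36, 24 were covered well enough to be tested, and 17 of these had a log2 fold change above 0 and 7 below. Their median was 1.55, and 1.29 without mCherry 2, beside 0.09 and -0.02 over all tested genes. The groups were separated on the higher side in 10 of 24 and on the lower side in 0, beside 13.5% and 8.88% of all genes. At an unadjusted p under 0.05, 5 were higher and 1 was lower, beside 10.1% and 4.90% of all genes, and none passed the adjusted threshold. Btg2, an antiproliferative gene induced by activity, had 148, 125 and 94.8 CPM in overlap and 11.7, 20.1 and 14.3 CPM in mCherry. The groups were far apart, with a log2 fold change of 2.99 ± 0.87 (edgeR adjusted p = 0.259). Fos, whose values stand above, had a log2 fold change of 3.14 ± 0.96 (edgeR adjusted p = 0.261), and the cfos label chose the cells. Arc, Egr1, Junb, Fosb and Nr4a2 were named after their values were seen. Arc, which acts at synapses, had counts of 26, 20 and 11 and 1, 3 and 2. The zinc finger factor Egr1 had 244, 397 and 371 CPM and 169, 148 and 71.6 CPM, and the Fos partner Junb had 57.9, 52.6 and 63.2 CPM and 21.3, 20.1 and 7.16 CPM. In all of these the groups did not overlap. Fosb had 19.9, 72.6 and 4.21 CPM and 4.27, 8.27 and 5.12 CPM, so that overlap 3 lay just under the mCherry libraries. Nr4a2, an orphan nuclear receptor, ran the other way at 47.1, 14.5 and 37.9 CPM and 24.5, 168 and 287 CPM, with mCherry 1 inside the range of overlap. Klf6, a zinc finger factor, had 63.4, 61.7 and 154 CPM and 22.4, 27.2 and 10.2 CPM. Without mCherry 2 the log2 fold changes were 3.03 for Btg2 and 2.97 for Fos, each with an edgeR adjusted p of 0.760. The list median stayed above 0 under each of 18 alternatives, from 0.11 to 2.07.

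Many activity-induced genes carry a cyclic AMP response element (CRE), the letters TGACGTCA, close to their start, where CREB binds after calcium or cyclic AMP signals. In the RefSeq promoter table (GRCm38.p6), 508 of 32851 windows of the 250 bases before a start held the full element (1.55%), and 5836 held its short form TGACG on either strand (17.8%). The short form lies inside the full element. Of the tested list members with a window, the full element was found in 1 of 17 immediate early genes (Btg2), 3 of 15 granule genes (Chgb, Pcsk1 and Scg2), 1 of 8 hormone genes (Sst), 1 of 29 vesicle genes (Syn1) and 1 of 20 pan-neuronal genes (Meg3). The windows of 4 of these activity and granule genes whose groups did not overlap are shown, 5′ to 3′ on the gene's strand, with the full element in capitals for Btg2, Pcsk1 and Scg2 and the short form in capitals for Fos. They lie at chr1:134079156-134079405 on the minus strand, chr13:75089607-75089856 on the plus strand, chr1:79440027-79440276 on the minus strand and chr12:85473640-85473889 on the plus strand.
Btg2: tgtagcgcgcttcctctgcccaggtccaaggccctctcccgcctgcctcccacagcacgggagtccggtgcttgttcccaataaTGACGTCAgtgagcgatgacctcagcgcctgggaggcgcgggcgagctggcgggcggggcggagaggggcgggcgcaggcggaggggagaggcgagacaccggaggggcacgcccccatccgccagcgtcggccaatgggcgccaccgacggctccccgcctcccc
Pcsk1: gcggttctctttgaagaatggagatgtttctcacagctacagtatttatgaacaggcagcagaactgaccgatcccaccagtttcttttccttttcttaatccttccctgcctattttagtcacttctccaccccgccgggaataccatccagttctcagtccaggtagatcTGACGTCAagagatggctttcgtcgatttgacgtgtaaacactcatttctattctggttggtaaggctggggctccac
Scg2: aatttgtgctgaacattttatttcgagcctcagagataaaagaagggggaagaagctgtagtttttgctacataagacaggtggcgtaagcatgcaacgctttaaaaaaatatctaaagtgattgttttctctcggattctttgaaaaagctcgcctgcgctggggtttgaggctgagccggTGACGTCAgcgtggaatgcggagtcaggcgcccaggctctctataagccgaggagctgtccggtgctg
Fos: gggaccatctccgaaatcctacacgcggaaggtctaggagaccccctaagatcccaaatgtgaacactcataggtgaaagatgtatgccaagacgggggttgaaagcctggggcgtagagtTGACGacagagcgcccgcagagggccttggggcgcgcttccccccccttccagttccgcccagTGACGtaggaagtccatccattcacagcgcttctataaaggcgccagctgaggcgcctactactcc
The element began 166 bases before the start in Btg2, 78 in Pcsk1 and 68 in Scg2, and the short form began 129 and 66 bases before the start in Fos. A match describes letters in a window and not binding.

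Hormones and neuropeptides are what PVH neurons are best known for. Of 25 listed genes, 11 were tested, 8 with a log2 fold change above 0 and 3 below, and the median was 1.10, or 0.62 without mCherry 2. The groups were separated on the higher side in 3 of 11 and on the lower side in 2 of 11, beside 13.5% and 8.88% of all genes. Vgf, whose product is cut into several secreted peptides, had 234, 102 and 52.7 CPM in overlap and 18.1, 15.4 and 11.3 CPM in mCherry. All overlap libraries stood above all mCherry libraries, with a log2 fold change of 3.11 ± 0.85 (edgeR adjusted p = 0.258). Vasopressin (Avp) had counts of 19, 95 and 10 and 2, 1 and 0, and corticotropin-releasing hormone (Crh) had 66, 37 and 15 and 7, 1 and 0. Both were higher in each overlap library, with fold changes of 5.95 ± 1.48 and 4.59 ± 1.58 on the log2 scale and edgeR adjusted p of 0.257 and 0.275. Their levels were uneven, since overlap 2 held most Avp counts and overlap 1 most Crh counts. Oxytocin (Oxt) had 70.6, 1121 and 156 CPM and 111, 305 and 398 CPM, with groups that overlap and a log2 fold change of 0.73 ± 0.87. It became -1.25 without overlap 2, the library with the most Oxt. Thyrotropin-releasing hormone (Trh) had counts of 13, 19 and 4 and 10, 5 and 5, and somatostatin (Sst) 4, 0 and 0 and 0, 2 and 3. In both the groups overlapped. The genes separated on the lower side were Cbln1, a secreted organiser of synapses, and Tac2, which encodes neurokinin B. Cbln1 had counts of 1, 3 and 0 in overlap and 21, 9 and 13 in mCherry, and Tac2 had 1, 1 and 2 and then 7, 4 and 7. Cbln1 and Tac2 were chosen after their values were seen, and Lhx6 and Hcn4 below were among the 3 genes of smallest p in their lists. Without mCherry 2 the log2 fold changes were 2.93 for Vgf, 5.83 for Avp and 4.06 for Crh, each with an edgeR adjusted p of 0.760.

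The granule proteins that package and cut these peptides lay on both sides of 0. Of 19 tested, 9 lay above 0 and 10 below, the median was -0.06, or -0.07 without mCherry 2. The groups were separated on the higher side in 3 and on the lower side in 3, shares of 15.8% each, beside 13.5% and 8.88% of all genes. Pcsk1, the proprotein convertase that makes the first cuts, had counts of 13, 20 and 17 in overlap and 0, 3 and 3 in mCherry, with a log2 fold change of 3.78 ± 1.31 (edgeR adjusted p = 0.275). Scg2, the granule protein secretogranin 2, had 219, 509.7 and 400.3 CPM and 162, 182 and 137 CPM. Both were higher in each overlap library. Cpe, the carboxypeptidase that trims the cut ends, had 324, 307 and 183 CPM and 417, 461 and 485 CPM, and chromogranin A (Chga) had 56.1, 56.2 and 46.4 CPM and 108, 117 and 88.0 CPM. These 2 were lower in each overlap library, with log2 fold changes of -0.74 ± 0.32 and -0.98 ± 0.52. Chgb and Pcsk2 had groups that overlap, with 34.4, 14.5 and 12.6 against 29.9, 40.1 and 37.9 CPM and 39.8, 23.6 and 8.43 against 36.3, 31.9 and 27.6 CPM. The sign of the list median turned without overlap 1 and without overlap 3.

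**Figure D4:**
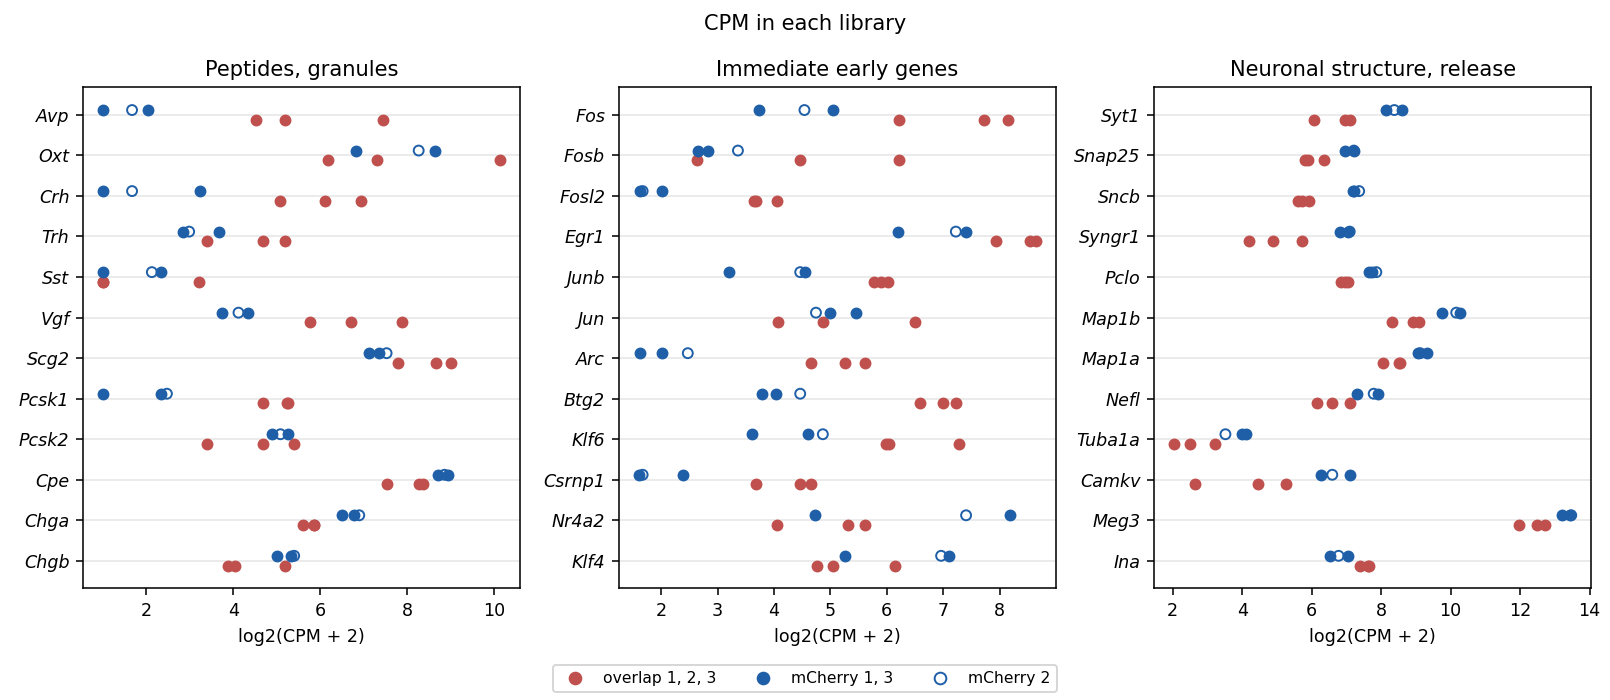
Level of 36 genes in each library, as log2(CPM + 2), in 3 panels of peptide and granule genes, immediate early genes, and genes of neuronal structure and release. Overlap libraries are red, mCherry 1 and mCherry 3 filled blue and mCherry 2 open blue. Avp, Crh, Vgf, Fos and Btg2 have red points to the right, and Syt1, Snap25, Sncb and Map1b have them to the left.

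Factors that set PVH identity were measured in both groups. Of 24 listed, 16 were tested, 10 above 0 and 6 below, with a median log2 fold change of 0.61, or 0.30 without mCherry 2, and the groups were separated on the higher side in 1 of 16 and on the lower side in 1, shares of 6.25% each, beside 13.5% and 8.88% of all genes. The higher one was Pou3f2, a POU factor that PVH neurons need to form, with 228, 239 and 196 CPM and 35.2, 75.6 and 104 CPM and a log2 fold change of 1.62 ± 0.53 (edgeR adjusted p = 0.271). The lower one was Lhx6, a LIM homeobox factor, with counts of 0, 2 and 1 in overlap, counts of 31, 18 and 8 in mCherry and a log2 fold change of -3.36 ± 1.67. Sim1 had a log2 fold change of 0.66 ± 1.05, which became -0.19 without overlap 1. The list median turned to -0.11 without overlap 1 and to -0.34 with replicate number as a block. Transmitter genes gave 8 of 17 above 0 and 9 below, with a median of -0.14, or -0.32 without mCherry 2. Slc17a6, the vesicular glutamate transporter of the hypothalamus, had 150.3, 23.6 and 40.0 CPM and 169, 79.1 and 85.9 CPM. Gad2, a glutamate decarboxylase that makes GABA, had 38.0, 34.5 and 23.2 CPM and 17.1, 17.7 and 17.4 CPM, and its sister gene Gad1 had counts of 21, 1 and 2 and 138, 6 and 3. Glutamate and GABA genes were thus both present in each group, and 1 library, mCherry 1, held most Gad1 counts. The GABA transporter gene Slc32a1 had counts of 1, 0 and 0 and 12, 4 and 0 and was too low to be tested.

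Genes of neuronal structure lay mostly on the mCherry side. All 30 listed pan-neuronal genes were tested, and 26 had a log2 fold change below 0, with a median of -0.63, or -0.81 without mCherry 2. The groups were separated on the lower side in 14 of 30, beside 8.88% of all genes and 12.8% of genes from 100 to 300 CPM, and on the higher side in 1. At an unadjusted p under 0.05, 5 were lower and 0 higher, beside 4.90% and 10.1% of all genes, and none passed the adjusted threshold. Map1b, a microtubule-associated protein of axons, had 476, 544 and 314 CPM in overlap and 1229.8, 1142 and 868 CPM in mCherry. The groups did not overlap, and the log2 fold change was -1.28 ± 0.35 (edgeR adjusted p = 0.258). Meg3, an abundant nuclear long RNA of neurons, had 5784, 6721 and 4026 CPM and 10994, 11344 and 9350.4 CPM, the highest level of the list. Of the microtubule, neurofilament and motor genes, 36 were tested and 30 lay below 0, with a median of -0.62, or -0.81 without mCherry 2. The groups were separated on the lower side in 15 of 36 and on the higher side in 2, beside 8.88% and 13.5% of all genes. Map1a had 364, 370.1 and 265 CPM and 634, 555 and 534 CPM. The neurofilament gene Nefl had 68.8, 136 and 94.8 CPM and 237, 218 and 155 CPM. Both were lower in each overlap library and were picked as examples. Ina, another neuronal filament, was the pan-neuronal gene separated on the higher side, with 167, 199.5 and 194 CPM and 129, 107 and 90.0 CPM. Fewer cells of a type and less RNA per cell cannot be told apart in such pooled captures.

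Genes of transmitter release also lay mostly on the mCherry side. Of 40 tested vesicle genes, 28 lay below 0 and 12 above, the median was -0.67, or -0.81 without mCherry 2, and the groups were separated on the lower side in 13 and on the higher side in 1, beside 8.88% and 13.5% of all genes. Sncb (beta-synuclein) had 47.1, 58.0 and 50.6 CPM in overlap and 148, 163 and 145 CPM in mCherry. Libraries of each group were close together, and the log2 fold change was -1.55 ± 0.50 (edgeR adjusted p = 0.270). Syngr1, a vesicle membrane protein, had 16.3, 50.8 and 27.4 CPM and 131, 135 and 112 CPM. Snap25, the plasma membrane SNARE, had 54.3, 79.8 and 56.9 CPM and 147, 146 and 123 CPM. The active zone scaffold Pclo had 130.4, 122 and 112 CPM and 212, 230.3 and 201 CPM. In all 4 genes the overlap libraries lay under the mCherry libraries. Sncb and Syngr1 were picked by p and Snap25 and Pclo as examples, so the 4 do not stand for all 40. The medians of the pan-neuronal, microtubule and vesicle lists stayed below 0 under each of 18 alternatives, from -0.83 to -0.42, from -0.90 to -0.50 and from -0.83 to -0.43. The lists are not independent, since 11 tested genes are in both the pan-neuronal and the microtubule list and 2 are in both the pan-neuronal and the vesicle list. Marker levels of other cells also differed between the groups. The summed level of 22 endothelial and mural markers was 1215 to 1456 CPM in overlap and 762 to 1043 CPM in mCherry, that of 20 astrocyte markers was 961 to 1202 CPM and 1364 to 1488 CPM, and their part in the neuronal lists was not tested.

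On the receiving side of the synapse the values were mixed. Of 26 postsynaptic scaffold and calcium signalling genes, 18 lay below 0, with a median of -0.42, or -0.57 without mCherry 2. Of these 26, 6 were separated on the lower side and 4 on the higher, beside 8.88% and 13.5% of all genes. Camkv, a calmodulin kinase-like vesicle protein, had 19.9, 36.3 and 4.21 CPM in overlap and 135, 94.5 and 75.7 CPM in mCherry. Its groups did not overlap, and its log2 fold change was -2.32 ± 0.88 (edgeR adjusted p = 0.289). Dlg1, a scaffold of the postsynaptic density, ran the other way with 116, 107 and 537 CPM and 103, 40.1 and 16.4 CPM, and overlap 3 carried most of the difference. Adhesion genes of synapses and axons were even, with 23 above 0 and 22 below and a median of 0.03 that became -0.12 without mCherry 2 and whose sign turned under 15 of 18 alternatives. Cntn1, an adhesion protein of axons, had 47.1, 236 and 118 CPM and 40.5, 29.5 and 33.8 CPM, higher in each overlap library.

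Transmitter receptors differed by subunit. Of 22 glutamate receptor genes, 12 lay below 0, with a median of -0.26, or -0.43 without mCherry 2. Of 17 GABA and glycine receptor genes, 9 lay below 0, with a median of -0.05, or -0.22 without mCherry 2, whose sign turned under 3 of 18 alternatives. Gabrg3, a gamma subunit of the GABA-A receptor, had 92.3, 123 and 154 CPM in overlap and 20.3, 10.6 and 4.09 CPM in mCherry, and the glycine receptor subunit Glra1 had 74.2, 102 and 122 CPM and 25.6, 16.5 and 13.3 CPM. Both were higher in each overlap library, with log2 fold changes of 3.39 ± 0.90 and 2.42 ± 0.82. The AMPA receptor subunit Gria3 had 19.9, 14.5 and 4.21 CPM and 24.5, 73.2 and 117 CPM, lower in each overlap library. Of 18 tested receptors for peptides, opioids and cannabinoids, out of 43 listed, 12 lay above 0, with a median of 0.22, or 0.29 without mCherry 2, that turned to -0.21 under limma-voom. The leptin receptor Lepr had counts of 32, 8 and 31 and 3, 1 and 0, higher in each overlap library. Adcyap1r1, the receptor of the peptide PACAP, had 18.1, 134 and 14.7 CPM and 9.60, 10.6 and 7.16 CPM, a difference that rested on overlap 2. The kappa and mu opioid receptors, Oprk1 and Oprm1, had 110.4, 145 and 37.9 and 74.2, 72.6 and 228 CPM in overlap and 24.5, 28.3 and 59.3 and 69.3, 133 and 124 CPM in mCherry, with groups that overlap. Of the monoamine receptors, 10 of 32 were tested and 7 lay below 0, with a median of -0.53, or -0.62 without mCherry 2. The serotonin-gated channel Htr3a had counts of 18, 23 and 27 and 2, 0 and 0, and the histamine receptor Hrh3 had 8, 6 and 1 and 52, 42 and 44.

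Most ion channel genes of excitability had negative fold changes, while the few with a small p ran both ways. Of 27 sodium, calcium and HCN channel genes, 21 lay below 0, with a median of -0.52, or -0.71 without mCherry 2. At an unadjusted p under 0.05, 2 of them were higher and 1 was lower, beside 10.1% and 4.90% of all genes. Of 30 potassium channel genes 21 lay below 0, with a median of -0.43, or -0.62 without mCherry 2. Both medians stayed below 0 under each of 18 alternatives. Kcnq5, a potassium channel of the M current, had counts of 2, 0 and 2 in overlap and 57, 73 and 112 in mCherry, and a log2 fold change of -5.01 ± 1.30 (edgeR adjusted p = 0.257). The sodium channel subunit Scn3b had counts of 3, 13 and 0 and 30, 87 and 145. Both were lower in each overlap library. Cacnb2, an auxiliary calcium channel subunit, ran the other way with 185, 81.6 and 86.4 CPM and 19.2, 5.90 and 9.21 CPM and a log2 fold change of 3.34 ± 0.89. Hcn4, a pacemaker channel, had counts of 21, 8 and 1 in overlap and 2, 0 and 0 in mCherry and a log2 fold change of 4.43 ± 1.95. Overlap 3 lay among the mCherry libraries. Channels that sense touch, acid, heat or ATP were even, with 12 of 20 above 0 and a median of 0.13, with and without mCherry 2. Piezo1, a mechanically gated channel, had counts of 31, 11 and 24 and 1, 0 and 2. Trpc6, a cation channel, had counts of 4, 32 and 79 and 1, 0 and 0. Both were higher in each overlap library, with edgeR adjusted p of 0.259 and 0.257. The other Piezo gene, Piezo2, which serves touch neurons, had counts of 46, 61 and 1 and 7, 93 and 179, with groups that overlap.

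Genes that all cells use gave a background to these lists. Nuclear-encoded oxidative phosphorylation genes had 29 of 46 below 0, with a median of -0.43, or -0.55 without mCherry 2, that turned to 0.10 when at least 30 counts were required. Their groups were separated on the lower side in 10 of 46 and on the higher side in 4, beside 8.88% and 13.5% of all genes. Glycolysis genes had 12 of 19 below 0, with a median of -0.56, or -0.80 without mCherry 2. This was close to the medians of the pan-neuronal, microtubule and vesicle lists, -0.63, -0.62 and -0.67. Of the 19 glycolysis genes, 2 were separated on the lower side and 2 on the higher. Proteasome genes had 18 of 28 below 0, with a median of -0.28, or -0.45, and 1 was separated on the lower side and 3 on the higher. Ribosomal protein genes had 37 of 69 below 0 and 32 above, with a median of -0.12, or -0.42 without mCherry 2. Psmd11, a subunit of the proteasome lid, had 168, 205 and 137 CPM in overlap and 34.1, 43.7 and 29.7 CPM in mCherry, with separated groups. Its log2 fold change was 2.24 ± 0.55 (edgeR adjusted p = 0.257). The groups were separated in 5 ribosomal genes on the higher side and 7 on the lower, 7.25% and 10.1%, beside 13.5% and 8.88% of all genes. Single members ran both ways. Rpl37 had counts of 36, 7 and 24 and 2, 0 and 0, and Rpl19 had 8, 2 and 7 and 40, 126 and 204. Ribosomal genes have many near-identical pseudogenes, so that their counts are uncertain. Genes of stress and glucocorticoid response were even, with 10 of 18 above 0 and a median of 0.02, or -0.09 without mCherry 2, whose sign turned under 12 of 18 alternatives. Hspb1, a small heat shock protein, had counts of 4, 27 and 50 in overlap and 0 in each mCherry library. Nuclear-retained long RNAs had 7 of 11 below 0, with a median of -0.20, or -0.51 without mCherry 2.

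Markers of other cells that a capture could hold did not all lean one way. Of 15 tested endothelial and mural markers, 10 lay above 0, with a median log2 fold change of 0.67, or 0.41 without mCherry 2, and 7 of 15 were separated on the higher side, beside 13.5% of all genes. Pecam1, an endothelial adhesion protein, had 246, 154 and 175 CPM in overlap and 87.5, 56.7 and 53.2 CPM in mCherry, a log2 fold change of 1.54 ± 0.51 (edgeR adjusted p = 0.275). Cspg4, a proteoglycan of pericytes and oligodendrocyte precursors, had 123, 41.7 and 228 CPM and 2.13, 5.90 and 14.3 CPM. The tight junction gene Cldn5 had counts of 4, 14 and 8 and 1, 0 and 0, while Cdh5, the cadherin that defines endothelium, had 14, 0 and 22 and 103, 36 and 1, with groups that overlap. Of 15 astrocyte markers 13 lay below 0, with a median of -0.46, or -0.67 without mCherry 2. Their groups were separated on the lower side in 3 and on the higher side in 2, beside 8.88% and 13.5% of all genes. Gja1, a gap junction protein, had 90.5, 112 and 249 CPM and 332, 302 and 296 CPM. The 2 markers above 0 were Sox9 and Cldn10. Sox9 had 119, 90.7 and 65.3 CPM and 55.5, 31.9 and 22.5 CPM, and Cldn10 had 57.9, 65.3 and 23.2 CPM and 19.2, 7.09 and 0 CPM. Of 11 oligodendrocyte markers 8 lay below 0, with a median of -0.40, or -0.62 without mCherry 2. Of the precursor markers 5 of 6 lay above 0, with a median of 0.78, or 0.69. Microglial markers were split at 6 and 6 of 12, with a median of 0.02, or -0.07 without mCherry 2. Cx3cr1, a microglial receptor, had 79.7, 85.3 and 80.1 CPM and 105, 8.27 and 6.14 CPM, so that mCherry 1 stood above every overlap library. Ependymal and tanycyte markers had 4 of 7 above 0, with a median of 0.67, or 0.42 without mCherry 2. Fibroblast markers had 5 of 9 below 0, with a median of -0.14, or -0.15, whose sign turned under 7 of 18 alternatives. Only 2 of 10 blood markers were tested. Cd3e, a T cell receptor subunit, had counts of 37, 49 and 48 and 2, 8 and 10, higher in each overlap library, and it shares exon sequence with Gm48719 on the opposite strand. Markers of neighbouring nuclei had 5 of 9 above 0 and 4 below, with a median of 0.00, or -0.32 without mCherry 2, whose sign turned under 16 of 18 alternatives. Foxp2 had 192, 190.5 and 86.4 CPM and 213, 429 and 500.3 CPM, lower in each overlap library, and Pmch, the melanin-concentrating hormone of the lateral hypothalamus, had counts of 36, 1 and 23 in overlap and 0 in each mCherry library.

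**Figure D5:**
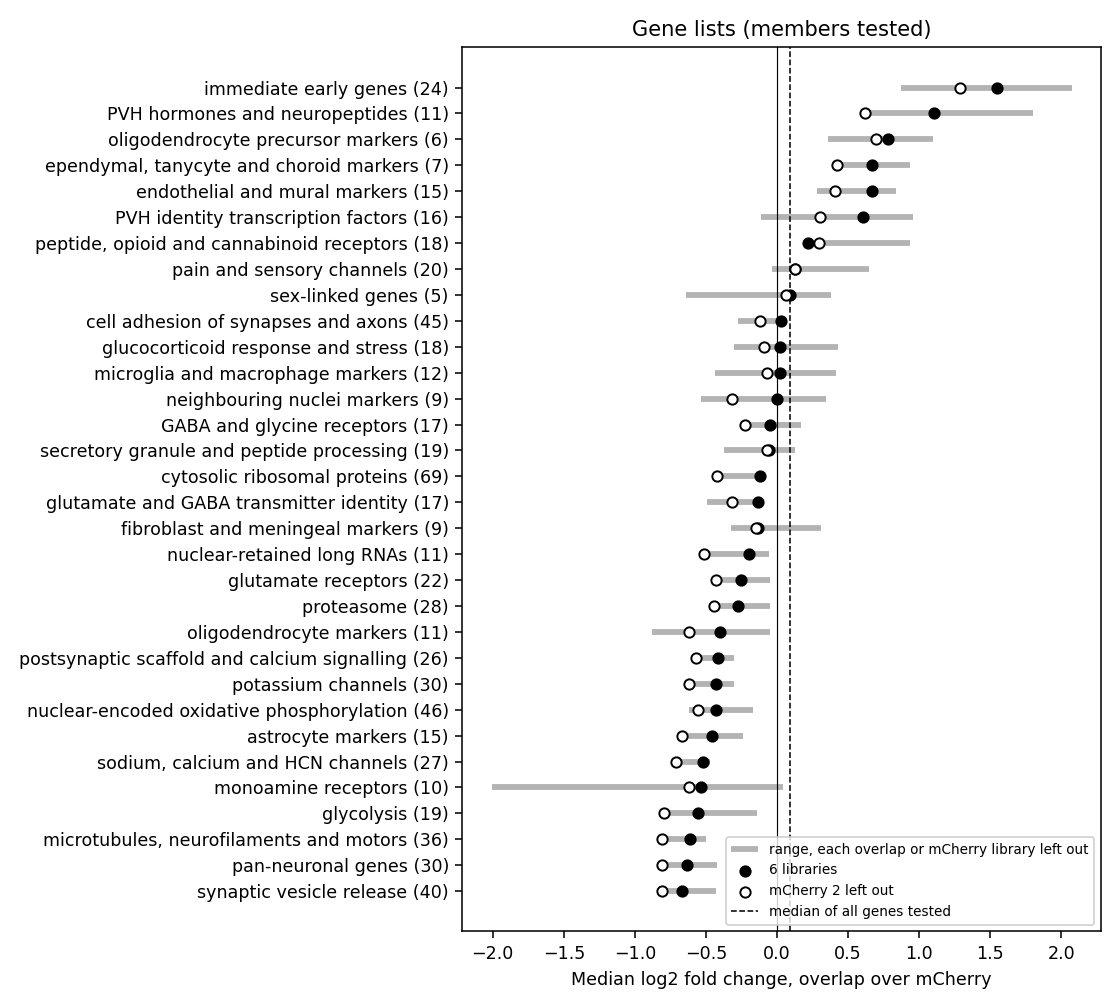
Median log2 fold change, overlap over mCherry, for each gene list with 5 or more tested members, whose number stands in brackets. Filled points use 6 libraries, open points leave out mCherry 2, grey bars span the values with each overlap or mCherry library left out, and the dashed line is the median of all tested genes. Immediate early genes and hormones sit highest, at 1.55 and 1.10, and vesicle and pan-neuronal genes lowest, at -0.67 and -0.63.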

How the data were processed

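The deposited values used here are raw read counts per gene, 1 column per library, and per the labels the libraries were made by Smart-3SEQ from laser-captured cells. The submitters' processing notes name Trim Galore, STAR, UMI-tools, featureCounts and the mm10 build, with no versions or settings, so whether UMIs were collapsed or strand was used is not given in the sources used here. Samples were grouped by their titles. Members and gene lists were chosen with earlier results of these data known.

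Genes were kept by edgeR 4.0.16 filterByExpr on 8 columns, in which the near-identical cfos 2 and cfos 3 were averaged and counted as 1 sample. Counts were scaled by TMM and tested with edgeR's quasi-likelihood test (R 4.3.3) for overlap against mCherry, two-sided, with Benjamini-Hochberg adjustment. CPM was computed over TMM-scaled counts of tested genes. The code was checked on simulated counts of independent libraries with a smaller spread than these data. That check does not show how large a change the test could find here. Alternatives were leaving out each library, other filters and scalings, replicate blocks, DESeq2 1.42.0 and limma 3.58.1. The rule for leading genes took 12 a side by the larger p of the fits with and without mCherry 2. It chose among genes with separated groups and at least 20 counts in each library of the higher group (mCherry 2 not counted). Up to 3 genes per list were named by p. Other list members were examples outside that rule, such as Snap25, Pclo, Map1a, Nefl, Ina, Chga, Chgb, Pcsk2, Oprk1, Oprm1, Piezo2 and Cdh5.

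Of 54838 gene IDs, 54809 were matched to GENCODE M21. Totals of 504785 to 978877 counts limit genes with few reads. Floors and bounds use 3 counts over a group and cover counting error only. Replicate numbers did not pair the libraries, with deviations of same-numbered libraries correlated at 0.00, -0.03 and 0.02. Some items are not reported here.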

Additional observations from a re-analysis of the deposited data

How the results depend on the processing

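The number of calls depended on the tool, the count filter and mCherry 2. Against 0 genes called in the main fit, 484 were called with no count filter (318 higher, 166 lower), 879 by DESeq2 (634 and 245), 123 by DESeq2 without mCherry 2 (99 and 24) and 1332 by limma-voom (1164 and 168), and limma-voom without mCherry 2 called 0. Leaving out overlap 1, 2 or 3, mCherry 1, 2 or 3, or cfos 1 called 0 every time, while genes at an unadjusted p under 0.05 ranged from 686 to 2214 higher and from 297 to 1025 lower, with both lowest values without mCherry 2. Against 1653 higher genes in the main fit, each over its own set of tested genes, the number was 1056 without mCherry 3, 854 with the 6 libraries alone, 664 with these and no mCherry 2, 3222 with no count filter, 805 with at least 30 counts, 2742 by limma-voom and 245 by limma-voom without mCherry 2. Against 804 lower genes it was 531 without overlap 2, 492 without overlap 3, 312 with the 6 libraries and no mCherry 2, 1469 with no filter, 1469 by limma-voom and 502 by DESeq2 without mCherry 2. With replicate number as a block, the pairing that the data do not bear out, 0 genes were called, 620 were higher and 456 lower at the unadjusted threshold. Signs turned for Gad1 (-4.07 to 1.52 over the libraries left out, negative with all, 0.071 by limma-voom), Oxt (-1.25 without overlap 2 to 1.25 without overlap 1, -0.17 with the replicate block, -0.21 by limma-voom), Sim1 (-0.19 without overlap 1 to 1.19 without mCherry 3), Sst (-3.92 without overlap 1 to 0.99 without overlap 2, -0.42 by limma-voom) and Xist (0.50 by limma-voom). The causes were not tested, and depth limits genes of a few counts.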

Other observations

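RNA of both sexes' chromosomes was found in every library. Xist, the long RNA of the inactive X chromosome, had counts of 26, 7 and 1 in overlap 1 to 3 and 114, 8 and 10 in mCherry 1 to 3. Ddx3y, a helicase gene of the Y chromosome, had counts of 38, 30 and 18 in overlap and 8, 26 and 34 in mCherry. The labels do not say whether animals of both sexes were pooled.

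Predicted genes took a large share of the reads, from 25.5% to 31.7% of the total in the 6 libraries. The predicted gene Gm26870 alone held 7.54% of overlap 1 and 0.703% to 3.50% of the other 5 libraries.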
